A study of Mus musculus with 6 samples.

Results

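The complement genes of mouse lung were compared between lungs with silicosis and control lungs. The set holds 31 components, receptors and regulators of the complement system, chosen by gene symbol for their place in the pathway. It was chosen with earlier results of these data known. Of the 31 genes, 30 are among the 17973 rows of the mRNA count table. All 30 passed the filter on low counts; C4a was not analysed here. The 3 silicosis libraries came from lungs of C57BL/6 mice given a single dose of silica through the trachea, 8 mg with 40 µL of sterile saline, and frozen after 90 days. The 3 comparison libraries came from C57BL/6 lungs labelled as controls and likewise frozen after 90 days, which the series text describes as given sterile saline. Silicosis is a scarring lung disease that follows inhalation of crystalline silica, and instillation of a single dose is a model of it. The labels name no altered gene in either group. Whether each library is a different mouse is not stated in the labels, and p-values therefore reflect only library-to-library spread, which may be technical.

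Complement is a cascade of blood and tissue proteins that marks particles, dying cells and microbes. The classical route starts with C1q, the lectin route with ficolins, collectins and mannose-binding lectin, and the alternative route amplifies on surfaces. All routes meet at cleavage of C3, after which C5 is cleaved and the terminal proteins form a membrane pore, while the small fragments C3a and C5a attract and activate leukocytes. Liver makes most of the circulating proteins, but macrophages, fibroblasts and epithelial cells of the lung also make several of them.

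Silicosis libraries are called N129, N136 and N138, and control libraries C7, C8 and C9, as in the labels; the control names have no link with the complement genes of the same letters, which are written below as genes. Each library held between 33698920 and 44000748 counts over mRNAs. Levels are CPM (counts scaled to a common library total of 1000000), and fold changes are silicosis over control. Genes are said to have risen or fallen where the edgeR quasi-likelihood test gave an adjusted p under 0.05. As a check of tissue, Sftpc, the surfactant protein C gene of alveolar type 2 cells, had between 7553 and 11750 CPM in silicosis and between 8666 and 10180 CPM in control libraries. Of the 6 lung epithelial markers 0 rose and 2 fell, Ager of alveolar type 1 cells by 1.05 on the log2 scale (SE 0.15) and Scgb1a1 of club cells by 1.18 (SE 0.27). Both endothelial markers fell, Cdh5 by 1.31 on the log2 scale (SE 0.12) and Pecam1 by 0.71 (SE 0.12). The part of these cell types in the complement results was not tested. The hepatocyte markers were near 0: Alb and Apoa1 together had at most 0.573 CPM in silicosis and 0.6 CPM in control libraries. In bulk lung samples, fewer cells of a type and less RNA per cell cannot be told apart.

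More complement genes rose than fell in silicosis. Of the 30 tested, 12 rose, 40% of them, where 15.3% of all 15808 tested mRNAs were called higher. By contrast 2 fell, the C7 gene and Vtn, or 6.67% where 16.5% of all mRNAs were called lower, and 16 did not pass. At least 2-fold rises were called for 6 members, 20% against 5.39% of all mRNAs, and a fall of that size for 1 member, 3.33% against 3.03%. The median log2 fold change of the 30 members was 0.39, and that of all tested mRNAs was 0.025. Counts of the 2 groups did not overlap for 15 members, 50% against 47.7% of all mRNAs, which is near the background. As the set was chosen with earlier results of these data known, these shares only describe it.

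**Figure D1:**
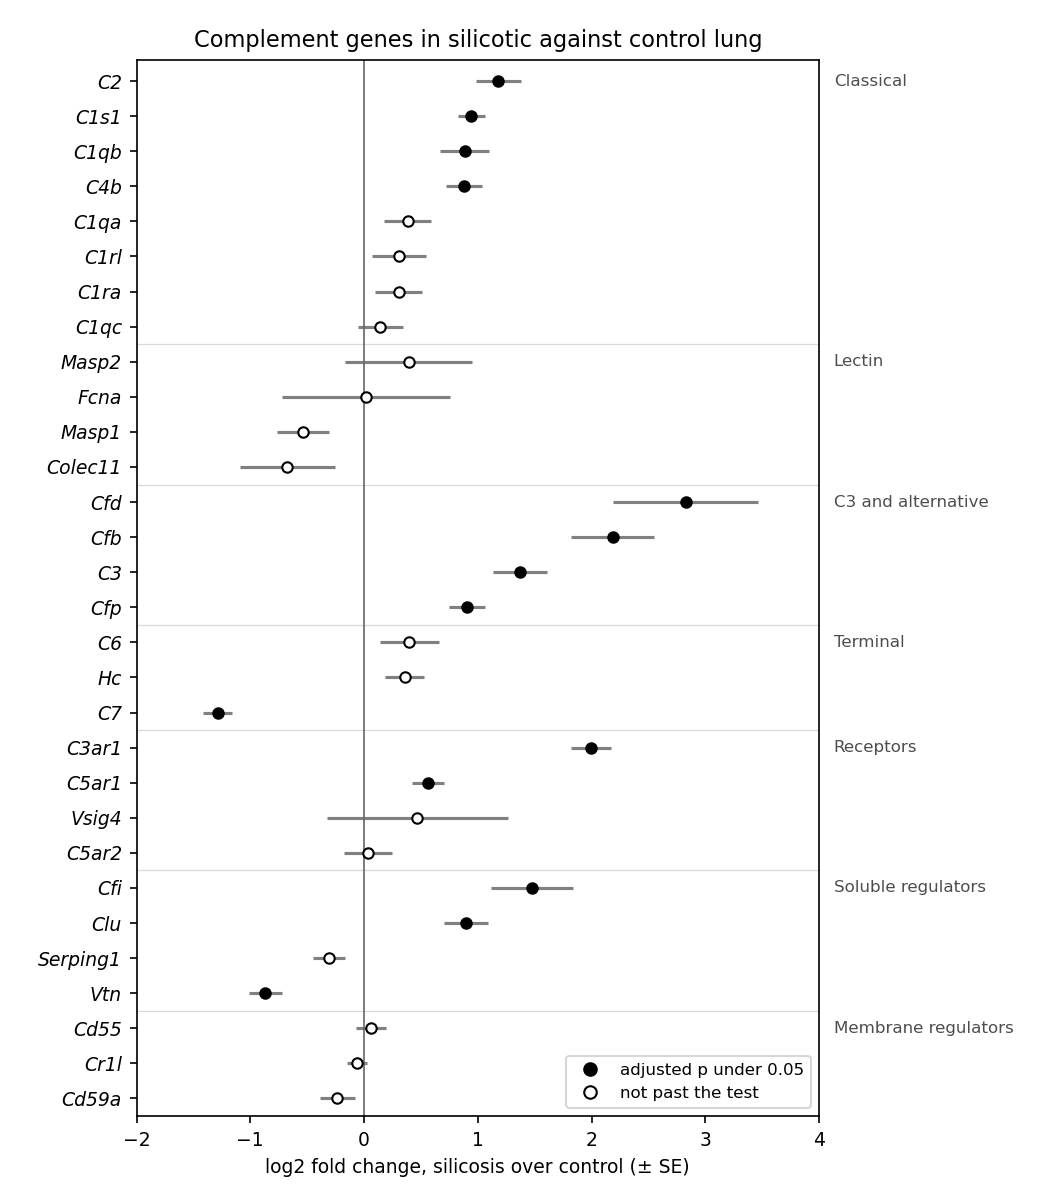
Log2 fold change, silicosis over control, of the 30 tested complement genes, grouped by role and ordered within each role; bars are the standard error and filled points passed an adjusted p of 0.05. Cfd, with 2.83, and the C7 gene, with -1.29, mark the ends, and no lectin gene or membrane regulator passed.

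By role, the 4 genes of C3 and the alternative route all rose, with a median log2 fold change of 1.78. Of the 8 classical genes tested 4 rose and 0 fell, with a median of 0.63. Of the 4 receptors 2 rose, of the 4 soluble regulators 2 rose and 1 fell, and of the 3 terminal components 1 fell. Of the 4 lectin genes and the 3 membrane regulators none passed, with medians of -0.26 and -0.06. The lectin genes were low, with at most 4.26 CPM in any library, which limits what could be detected.

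C3 is the component on which every route converges. It was the most abundant member per length of exon in both groups, with 464 RPKM (CPM per kilobase of exon) in silicosis and 179 RPKM in control. On the CPM scale C3 had 2252, 3201 and 1708 CPM in N129, N136 and N138, against 775, 805 and 1188 CPM in control libraries C7, C8 and C9. Every silicosis library lay above every control library. The log2 fold change was 1.37 (SE 0.24, edgeR adjusted p = 0.00287), from means of 2387 ± 755 and 923 ± 230 CPM (SD, n = 3 each). C3 alone supplied 41.5%, 44.8% and 38.8% of the summed member counts in N129, N136 and N138, against 23.4%, 22.7% and 30.4% in C7, C8 and C9. The 30 members together made up 0.569%, 0.712% and 0.470% of all mRNA counts in the silicosis libraries, against 0.324%, 0.337% and 0.377% in the control libraries.

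The sequences upstream of the C3 gene, its receptor gene C3ar1 and the C7 gene are shown because C3 and C3ar1 rose together while the C7 gene had the steepest fall of the set. Each holds 250 bases before to 50 bases after the annotated start, from RefSeq on build GRCm38.p6, an earlier build than the authors' GRCm39, and runs 5′ to 3′ on the gene's strand. C3 lies at chr17:57228087-57228386, C3ar1 at chr6:122856108-122856407 and the C7 gene at chr15:5063724-5064023, all on the minus strand. Capitals mark matches to the motifs searched.
C3: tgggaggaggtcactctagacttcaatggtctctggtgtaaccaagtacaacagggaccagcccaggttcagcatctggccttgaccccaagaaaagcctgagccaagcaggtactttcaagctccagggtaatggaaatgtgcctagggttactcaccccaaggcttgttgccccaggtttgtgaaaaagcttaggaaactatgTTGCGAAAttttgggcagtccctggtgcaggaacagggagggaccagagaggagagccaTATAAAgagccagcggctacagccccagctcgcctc
C3ar1: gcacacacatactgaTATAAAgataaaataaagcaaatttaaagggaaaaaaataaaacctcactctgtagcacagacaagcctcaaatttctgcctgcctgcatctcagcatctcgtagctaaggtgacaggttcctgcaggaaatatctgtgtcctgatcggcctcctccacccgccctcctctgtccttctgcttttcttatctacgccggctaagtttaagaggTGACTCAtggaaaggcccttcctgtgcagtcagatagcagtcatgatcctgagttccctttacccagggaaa
C7: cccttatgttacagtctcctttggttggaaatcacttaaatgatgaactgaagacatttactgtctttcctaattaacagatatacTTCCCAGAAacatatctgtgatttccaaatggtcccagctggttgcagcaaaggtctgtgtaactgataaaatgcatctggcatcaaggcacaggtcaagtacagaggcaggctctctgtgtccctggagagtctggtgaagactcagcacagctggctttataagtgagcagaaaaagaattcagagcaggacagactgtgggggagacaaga
The motifs searched on both strands were C/EBP with the letters TTGCNNAA, STAT with TTCNNNGAA, the NF-kB consensus, and AP-1 with TGANTCA. The motif of PU.1, a transcription factor of myeloid cells, was GAGGAA, also on both strands. For the TATA box, TATAAA was searched only on the gene's strand. The C3 sequence holds a C/EBP match at bases 206 to 213 and a TATA match at bases 265 to 270, counted from the first base printed. C3ar1 holds an AP-1 match at bases 229 to 235 and a TATA match at bases 16 to 21, and the C7 gene a STAT match at bases 87 to 95. Relative to the annotated start, the TATA match of C3 begins 14 bases downstream and that of C3ar1 235 bases upstream. None of these matches overlaps another. Of all 32851 promoter windows in the same table, 10.8% hold the C/EBP motif, 8.30% STAT, 7.81% AP-1, 28.3% PU.1, 8.46% NF-kB and 8.32% TATA. Of the 31 members 22 had a promoter entry. Among those 22, taking the first entry of each gene, 5 hold the C/EBP motif, 5 STAT, 1 AP-1, 7 PU.1, 1 NF-kB and 4 TATA. A match describes letters in the window and is not a shown binding site.

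The other alternative-route genes were far less abundant than C3 and also rose. Cfb encodes factor B, the protease subunit of the alternative C3 convertase, and had 2.29, 4.04 and 2.11 CPM in N129, N136 and N138, against 0.696, 0.479 and 0.678 CPM in C7, C8 and C9. The groups did not overlap, and the log2 fold change was 2.19 (SE 0.37, edgeR adjusted p = 0.00231). Cfb shares 81.3% of its 50-base windows with Gm20547, a gene that overlaps Cfb and part of C2 in GENCODE and has no row in the count table, so its level is uncertain. With the counts of C2 and Cfb added into 1 gene, the log2 fold change was 1.33 (SE 0.19, edgeR adjusted p = 0.0012). C2 supplied most of that sum, with 10.6, 13.9 and 10.9 CPM in N129, N136 and N138. Both genes share windows with Gm20547 and not with each other. The sum therefore cannot tell whether the level of Cfb is right. Cfp encodes properdin, which stabilises the same convertase. It had 29.8, 31.6 and 27.2 CPM in the silicosis libraries, against 13.1, 14.5 and 19.7 CPM in the control libraries C7, C8 and C9, again with no overlap (log2 fold change 0.91, SE 0.16, edgeR adjusted p = 0.00309). Neutrophils store properdin, and their 4 markers had between 204 and 311 CPM in sum in silicosis and between 60.6 and 112 CPM in control. Of these 4 markers 3 rose; Ly6g was at 0 in control library C7. Their part in the Cfp result was not tested.

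Cfd, the gene of factor D, had the steepest rise among the members. Factor D, also called adipsin, cleaves factor B and is made abundantly by fat cells. Cfd had 43.3, 20.9 and 18.8 CPM in N129, N136 and N138, against 1.17, 2.06 and 8.51 CPM in C7, C8 and C9. All silicosis libraries lay above all control libraries, and C9 stood apart from the other control libraries. The log2 fold change was 2.83 (SE 0.64, edgeR adjusted p = 0.00963), or 4.09 (SE 0.47, adjusted p = 0.00122) without C9. Of the adipocyte markers, several were high in the same libraries as Cfd. Adipoq, the adiponectin gene, had 15.8, 7.68 and 5.06 CPM in N129, N136 and N138, against 0.248, 0.479 and 1.41 CPM in C7, C8 and C9, with a log2 fold change of 3.75 (SE 0.61). Plin1, the coat protein of fat droplets, had 18.3, 8.01 and 6.09 CPM in silicosis and 1.09, 0.503 and 2.11 CPM in control libraries. In both genes N129 was highest of all libraries and C9 highest of the control libraries, as in Cfd. Of the 4 adipocyte markers tested 3 rose, Adipoq, Plin1 and Retn, while Cidec did not pass, and Lep was too low to test and at 0 in C8. The 5 markers together had between 18.3 and 47.3 CPM in silicosis and between 10.04 and 15.9 CPM in control. The ratio of Cfd to Adipoq was 2.74, 2.73 and 3.70 in N129, N136 and N138, lower than the 4.70, 4.30 and 6.04 in C7, C8 and C9. The part of fat tissue in the Cfd result was not tested.

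**Figure D2:**
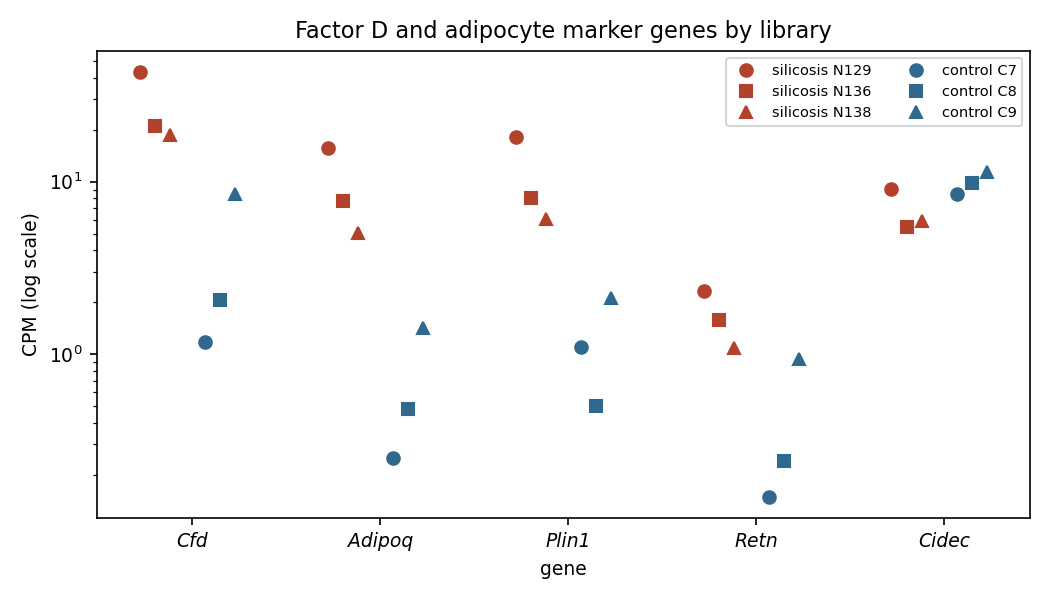
Normalised counts (CPM, log scale) of Cfd and 4 adipocyte marker genes in each silicosis and control library. Cfd, Adipoq, Plin1 and Retn are highest in N129 and, among control libraries, in C9, while Cidec overlaps between the groups.

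In the classical route, 1 chain of C1q rose and the other chains did not pass. C1q is a recognition protein built from equal numbers of A, B and C chains, which 3 neighbouring genes encode, and macrophages are its main source in tissues. C1qb had 43.0, 63.6 and 32.1 CPM in N129, N136 and N138, against 22.9, 25.7 and 26.5 CPM in C7, C8 and C9, with no overlap (log2 fold change 0.88, SE 0.22, edgeR adjusted p = 0.0136). Without control library C7 the adjusted p was 0.0536. C1qa had 42.1, 53.1 and 28.6 CPM in silicosis and 32.4, 35.4 and 27.2 CPM in control libraries, which overlap (log2 fold change 0.38, SE 0.20, edgeR adjusted p = 0.186). Without N138, the lowest of the silicosis libraries, C1qa was called higher at 0.59 (adjusted p = 0.0157). C1qc had 27.9, 39.4 and 21.6 CPM in silicosis and 24.0, 26.8 and 29.8 CPM in control libraries (log2 fold change 0.14, SE 0.20, edgeR adjusted p = 0.622). N136 was high for all the C1q genes and N138 low.

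The shares of the chains in summed C1q counts were also compared. C1qb supplied 38.0%, 40.8% and 39.0% of the C1q counts in N129, N136 and N138, against 28.9%, 29.3% and 31.8% in C7, C8 and C9. C1qc supplied 24.7%, 25.2% and 26.2% in silicosis, against 30.2%, 30.5% and 35.7% in control libraries. Neither share overlapped between groups, while that of C1qa did. The summed C1q level was 113, 156 and 82.4 CPM in N129, N136 and N138, against 79.3, 87.9 and 83.5 CPM in C7, C8 and C9, so it overlapped. Of the 4 general macrophage markers Cd68, Adgre1, Mrc1 and Lyz2, 3 rose, with a sum between 5190 and 9658 CPM in silicosis and between 2978 and 3547 CPM in control. Relative to that sum, C1q was lower in every silicosis library: 0.0200, 0.0162 and 0.0159 in N129, N136 and N138, against 0.0266, 0.0248 and 0.0280 in C7, C8 and C9. Lyz2, which type 2 cells also express, makes up most of that sum. It had 5460, 9366 and 4960 CPM in N129, N136 and N138, against 2801, 3339 and 2791 CPM in C7, C8 and C9. The lower ratio therefore rests on Lyz2 and does not describe Cd68, Adgre1 and Mrc1. Relative to the 6 monocyte and interstitial macrophage markers, of which 4 rose, C1q overlapped, with 0.244, 0.284 and 0.145 in silicosis and 0.270, 0.260 and 0.258 in control libraries. Alveolar macrophage markers overlapped in sum, between 317 and 603 CPM in silicosis and between 311 and 413 CPM in control, and 2 of their 4 genes fell. The part of macrophage number in the C1q values was not tested.

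Among the proteases of the first complex, C1s1 rose while C1ra did not pass. C1r activates C1s, and C1s cleaves C4 and C2. C1s1 had 185, 233 and 182 CPM in N129, N136 and N138, against 96.2, 111 and 106 CPM in C7, C8 and C9 (log2 fold change 0.94, SE 0.12, edgeR adjusted p = 0.000551). C1ra had 80.1, 123 and 66.4 CPM in silicosis and 65.7, 71.3 and 81.6 CPM in control libraries, which overlap (log2 fold change 0.31, SE 0.20, edgeR adjusted p = 0.284). The ratio of C1s1 to C1ra was 2.31, 1.89 and 2.74 in N129, N136 and N138, above the 1.46, 1.55 and 1.30 in C7, C8 and C9. Of the C1s1 windows 38.8% also occur in another gene, and of the C1ra windows 50.9%, mainly in the copies C1s2 and C1rb, so both levels are uncertain. Adding the copies' counts gave 0.95 for C1s1 and 0.32 for C1ra, with the same calls. The copies were low, C1s2 with at most 1.22 CPM and C1rb with at most 2.18 CPM in any library. Adding them could therefore hardly change a call. C1rl, a C1r-like protease gene, did not pass (log2 fold change 0.31, SE 0.24).

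C4b and C2, the substrates of C1s, both rose. C4b had 523, 652 and 423 CPM in N129, N136 and N138, against 293, 318 and 256 CPM in C7, C8 and C9 (log2 fold change 0.88, SE 0.16, edgeR adjusted p = 0.00313). C2 had 10.6, 13.9 and 10.9 CPM in silicosis and 5.54, 6.03 and 3.99 CPM in control libraries (log2 fold change 1.18, SE 0.20, edgeR adjusted p = 0.00245). Neither gene overlapped between groups. C4b shares 35.3% of its windows with C4a and C2 shares 58.0% with Gm20547, so both levels are uncertain.

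**Figure D3:**
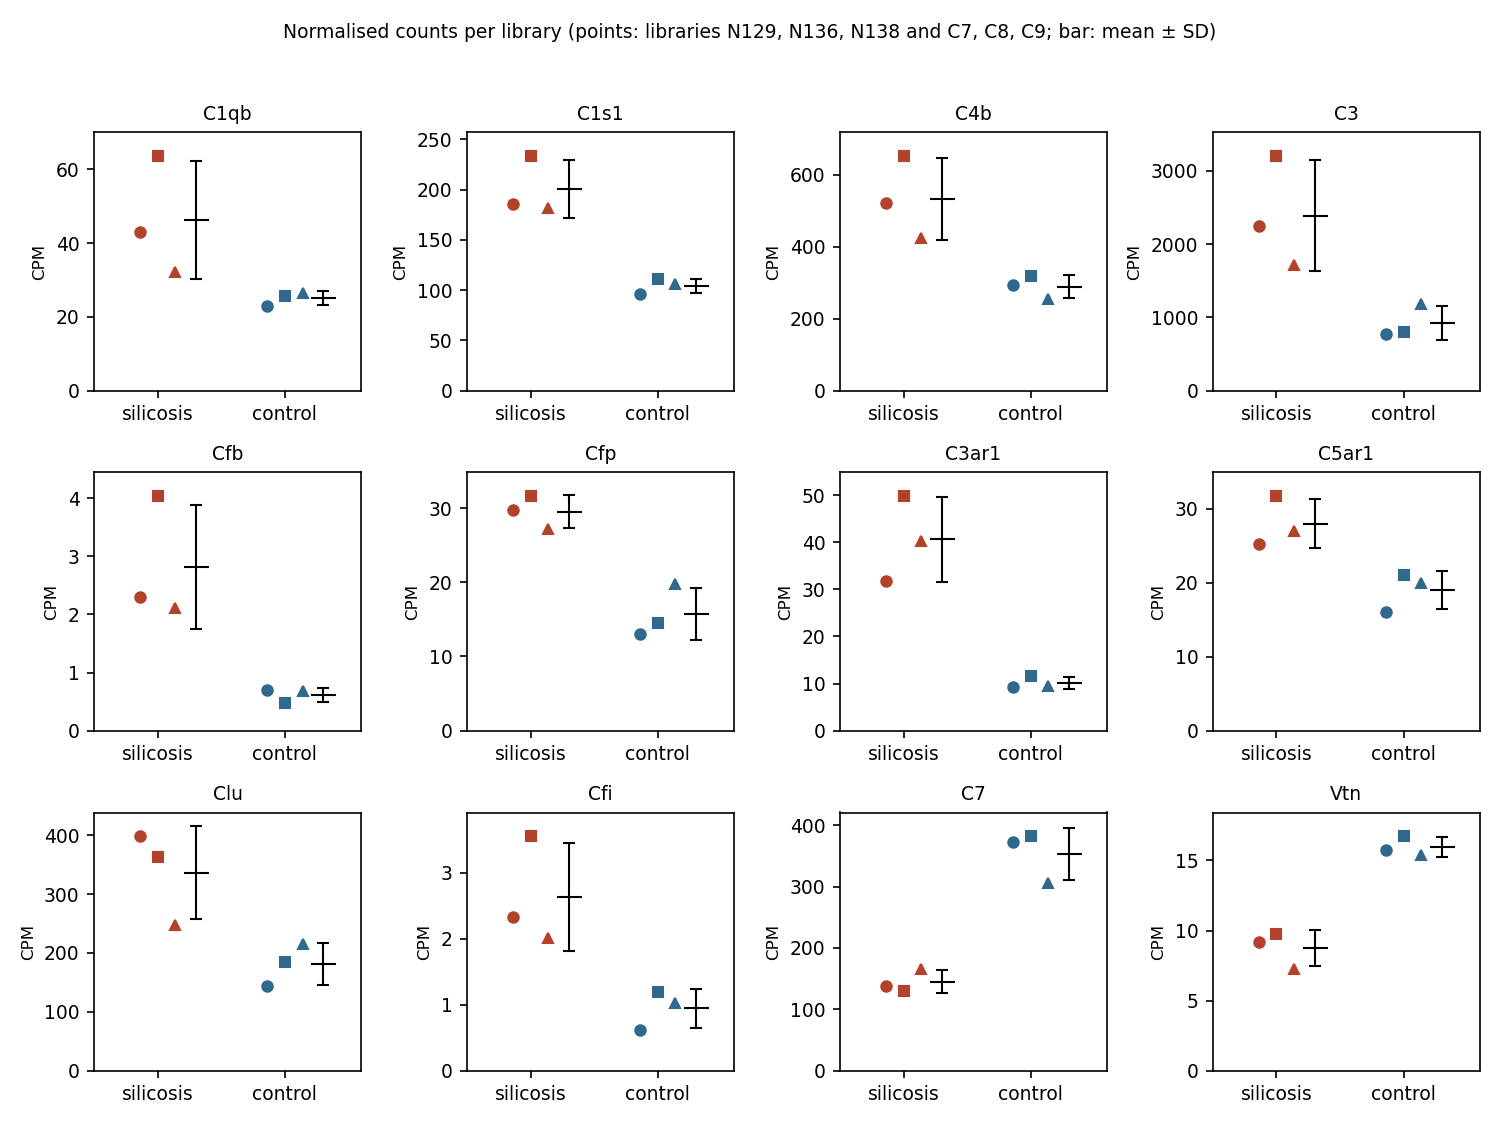
Normalised counts (CPM, axes from 0) of 12 complement genes in each silicosis and control library; the bar is the mean ± SD of 3 libraries. The 10 genes that rose in these panels have every silicosis library above every control library, and the C7 gene and Vtn have the reverse. All 12 genes shown passed the test, and for 47.7% of all tested mRNAs the groups likewise do not overlap.

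No lectin-route gene passed. Masp1, a protease of the lectin complexes, had 2.61, 3.17 and 2.25 CPM in N129, N136 and N138, against 3.88, 4.26 and 3.55 CPM in C7, C8 and C9. These do not overlap, but the log2 fold change of -0.54 (SE 0.23) missed the threshold (edgeR adjusted p = 0.103). Colec11, a collectin gene, had a log2 fold change of -0.68 (SE 0.42, edgeR adjusted p = 0.246) from between 0.417 and 0.808 CPM in silicosis and between 0.652 and 1.24 CPM in control. Masp2 had between 0.584 and 1.17 CPM in silicosis and between 0.313 and 1.29 CPM in control, and shares 57.3% of its windows with Tardbp, so its level is uncertain. Fcna, the ficolin A gene of macrophages, had 1.28, 1.58 and 1.81 CPM in N129, N136 and N138, against 0.522, 0.383 and 3.73 CPM in C7, C8 and C9. C9 lay far above the other control libraries, and the log2 fold change was 0.02 (SE 0.74) with it and 1.77 (SE 0.41, edgeR adjusted p = 0.0189) without it.

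The terminal genes did not move together. Hc, which encodes C5, had 1008, 1458 and 874 CPM in N129, N136 and N138, against 848, 882 and 877 CPM in C7, C8 and C9. N138 lay among the control values, and the log2 fold change of 0.36 (SE 0.17) did not pass (edgeR adjusted p = 0.143). Without N138 it was 0.51 (adjusted p = 0.03). C6, which joins the pore after C5 is cleaved, had 59.5, 97.9 and 49.4 CPM in silicosis and 44.9, 69.1 and 43.0 CPM in control libraries, with a log2 fold change of 0.40 (SE 0.26, edgeR adjusted p = 0.274).

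The C7 gene encodes the component that lets the growing pore insert into membranes. It had 139, 130 and 166 CPM in N129, N136 and N138, against 372, 382 and 305 CPM in C7, C8 and C9. The highest silicosis library was well below the lowest control library, and the log2 fold change was -1.29 (SE 0.13, edgeR adjusted p = 0.000192). The ratio of C6 to the C7 gene was 0.429, 0.753 and 0.298 in silicosis, against 0.121, 0.181 and 0.141 in control libraries. C7 transcripts are known from fibroblasts and other stromal cells. Of 5 fibroblast markers 1 rose and 2 fell, with sums between 1413 and 1783 CPM in silicosis and between 1192 and 1361 CPM in control. Col1a1 rose with a log2 fold change of 1.02, and Pdgfra (-0.72) and Tcf21 (-1.78) fell. Dcn (0.49) and Pi16 (0.39) did not pass. Col1a1 had the largest part in these silicosis sums, with 905.5, 1226 and 1240 CPM in N129, N136 and N138. Tcf21, a transcription factor of resting lung fibroblasts, had 23.3, 19.8 and 22.8 CPM in N129, N136 and N138, against 79.4, 76.2 and 70.5 CPM in C7, C8 and C9. Of 4 mesothelial markers 2 fell, with sums between 30.3 and 60.4 CPM in silicosis and between 57.6 and 78.7 CPM in control. Their part in the fall of the C7 gene was not tested.

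Among the receptors, C3ar1 had the largest change. C3ar1 encodes the C3a receptor, which is carried by monocytes, macrophages and other myeloid cells. C3ar1 had 31.8, 49.8 and 40.2 CPM in N129, N136 and N138, against 9.37, 11.7 and 9.45 CPM in C7, C8 and C9. The groups lay far apart, with a log2 fold change of 1.997 (SE 0.18, edgeR adjusted p = 0.000122), about 3.99-fold. C5ar1, the main C5a receptor, had 25.3, 31.7 and 27.0 CPM in silicosis and 16.1, 21.0 and 19.99 CPM in control libraries. It did not overlap and rose by 0.56 (SE 0.14, edgeR adjusted p = 0.0156), but the adjusted p was 0.0614 without control library C7. C5ar2, the other C5a receptor, which does not couple to G proteins, had 6.31, 9.70 and 6.71 CPM in silicosis and 6.24, 8.42 and 7.57 CPM in control libraries (log2 fold change 0.03, SE 0.21, edgeR adjusted p = 0.922).

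The receptor genes were also compared as ratios within each library. The ratio of C3ar1 to C5ar1 was 1.26, 1.57 and 1.49 in N129, N136 and N138, against 0.584, 0.556 and 0.473 in C7, C8 and C9, so the order of the 2 genes on the CPM scale differed between groups. Per length of exon C3ar1 stayed below C5ar1, at 9.43 and 10.9 RPKM in silicosis and 2.36 and 7.40 RPKM in control. The ratio of C5ar1 to C5ar2 was 4.0, 3.27 and 4.03 in silicosis and 2.57, 2.49 and 2.64 in control libraries. Csf1r, the growth factor receptor of monocytes and macrophages, rose by 0.35 (SE 0.12, edgeR adjusted p = 0.0469) and overlapped between groups. The ratio of C3ar1 to Csf1r was 0.166, 0.214 and 0.164 in N129, N136 and N138, against 0.0578, 0.0683 and 0.0492 in C7, C8 and C9, so C3ar1 was higher also relative to that marker. Other macrophage markers had larger changes than Csf1r, among them Cd14 with a log2 fold change of 2.60 and Ms4a7 with 1.97. Vsig4, a receptor for C3 fragments on tissue-resident macrophages, was near the floor in most libraries, with 28, 24 and 28 counts in N129, N136 and N138, against 8, 3 and 47 counts in C7, C8 and C9. As with Fcna, C9 lay apart: the log2 fold change was 0.47 (SE 0.80) with it and 2.32 (SE 0.63, edgeR adjusted p = 0.033) without it.

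**Figure D4:**
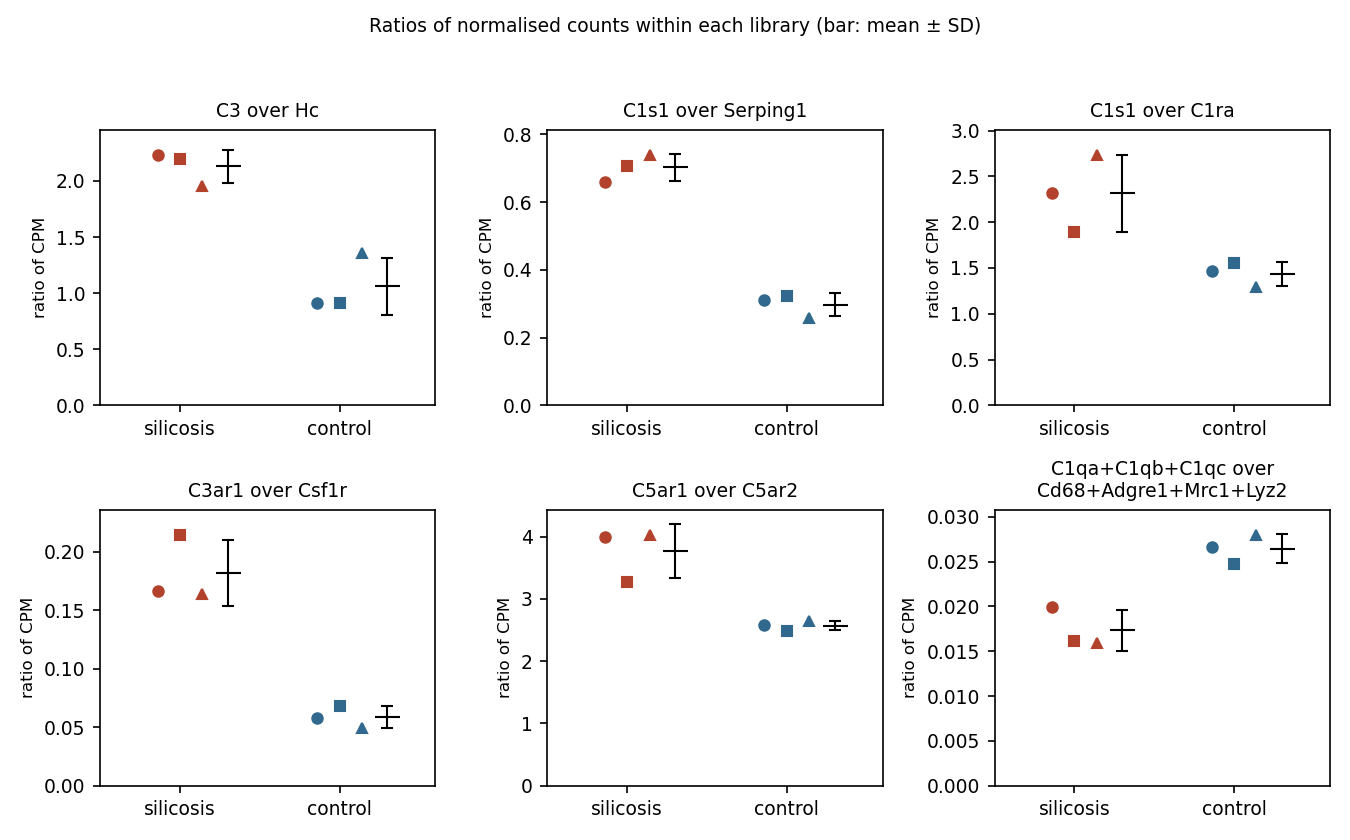
Ratios of normalised counts within each silicosis and control library (axes from 0), with the mean ± SD of 3 libraries. C3 over Hc, C1s1 over Serping1, C1s1 over C1ra, C3ar1 over Csf1r and C5ar1 over C5ar2 are higher in every silicosis library. Summed C1q over summed macrophage markers is lower, but Lyz2 makes up most of that marker sum and the lower ratio rests on it.

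The soluble regulators went in different directions. Cfi, the protease that degrades C3b and C4b, had 2.32, 3.56 and 2.003 CPM in N129, N136 and N138, against 0.621, 1.20 and 1.02 CPM in C7, C8 and C9 (log2 fold change 1.47, SE 0.36, edgeR adjusted p = 0.0136). Clu, clusterin, a chaperone that binds terminal complexes in fluid, had 399, 364 and 247 CPM in silicosis and 145, 185 and 215 CPM in control libraries (log2 fold change 0.89, SE 0.19, edgeR adjusted p = 0.00792). Both rose without overlap. Vtn, vitronectin, another fluid-phase inhibitor of the pore and a cell adhesion protein, fell to 9.15, 9.77 and 7.29 CPM in silicosis, against 15.7, 16.8 and 15.4 CPM in control libraries (log2 fold change -0.87, SE 0.15, edgeR adjusted p = 0.00247).

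Serping1 encodes C1 inhibitor, which blocks C1r, C1s and the lectin proteases. It had 281, 330 and 246 CPM in N129, N136 and N138, against 309, 342 and 409 CPM in C7, C8 and C9. The groups overlapped and the log2 fold change of -0.31 (SE 0.14) did not pass (edgeR adjusted p = 0.123); without N136 it was -0.43 (adjusted p = 0.0436). The ratio of C1s1 to Serping1 was 0.659, 0.707 and 0.740 in silicosis, against 0.311, 0.324 and 0.258 in control libraries. The ratio of C3 to Hc likewise was 2.24, 2.20 and 1.96 in N129, N136 and N138, against 0.914, 0.912 and 1.355 in C7, C8 and C9. These and the other ratios of 2 genes were chosen with the genes' values known. For each of the 8 such ratios the groups did not overlap and the two-sided exact permutation p was 0.1, also after adjustment over the 8, the smallest that 3 against 3 allows.

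Membrane regulators protect host cells, and none of the 3 among the members passed the test. Cd55, which speeds the decay of C3 convertases, had 98.0, 85.3 and 91.2 CPM in N129, N136 and N138, against 81.4, 75.5 and 107 CPM in C7, C8 and C9 (log2 fold change 0.06, SE 0.13). Cr1l, or Crry, a rodent cofactor for cleavage of C3b and C4b, had 101.2, 95.4 and 102 CPM in silicosis and 98.8, 103 and 109 CPM in control libraries (log2 fold change -0.06, SE 0.08). Cd59a, which blocks the last step of the pore, had 14.7, 14.2 and 15.8 CPM in silicosis and 14.3, 17.5 and 21.0 CPM in control libraries (log2 fold change -0.24, SE 0.15). Their edgeR adjusted p-values were 0.765, 0.62 and 0.273, and all overlapped between groups. Cd55 shares 12.5% of its windows with other genes.

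**Figure D5:**
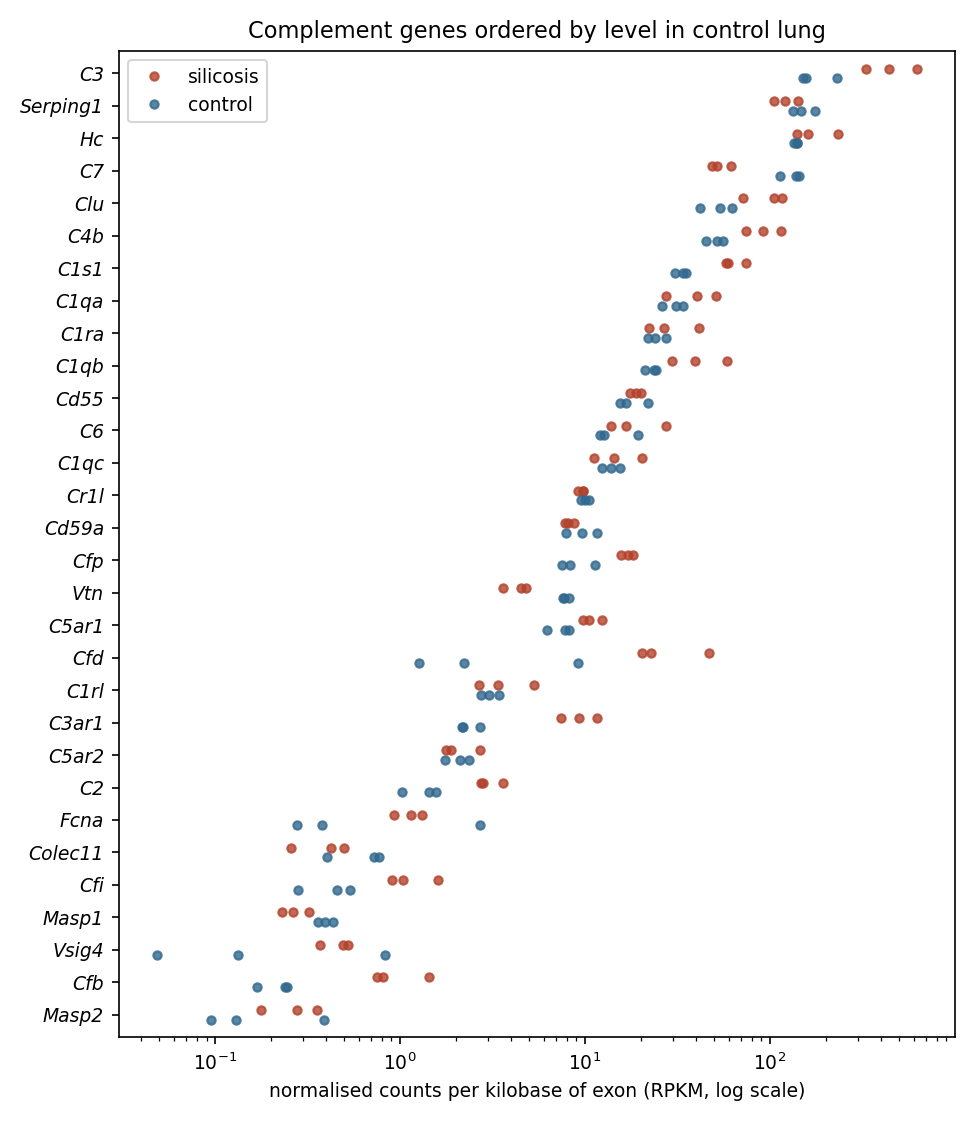
Normalised counts per kilobase of exon (RPKM, log scale) of the 30 complement genes in each silicosis and control library, ordered by the control mean. C3, Serping1, Hc and the C7 gene lead in control lung, and Masp2 and Cfb are lowest.

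Per length of exon, the members spanned a wide range. In control lung C3 led with 179 RPKM, followed by Serping1 with 152, Hc with 139 and the C7 gene with 132. In silicosis C3 was at 464 RPKM and Hc at 178, ahead of Serping1 with 123, Clu with 98.0, C4b with 93.5 and C1s1 with 64.0, and the C7 gene stood at 54.1. The level of Cfb, 0.997 RPKM in silicosis and 0.219 RPKM in control, is among the lowest but is counted beside the overlapping Gm20547.

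Of 30 further complement genes, likewise chosen with earlier results of these data known, 26 had rows and 21 were tested. Among these 21, 11 rose, 0 fell and 10 did not pass, where 15.3% of all tested mRNAs were called higher and 16.5% lower. The median log2 fold change of the 21 was 0.65, against 0.025 over all tested mRNAs. Csmd1, a large membrane protein with complement control domains known mainly from brain, had 74.8, 69.3 and 68.9 CPM in N129, N136 and N138, against 5.39, 4.52 and 5.19 CPM in C7, C8 and C9 (log2 fold change 3.82, SE 0.12, edgeR adjusted p = 3.46e-07). Its replicates were close within each group. C4bp, a cofactor that inactivates C4b, had 46, 20 and 24 counts in silicosis and 0, 4 and 2 counts in control libraries (log2 fold change 3.88, SE 0.77, and 4.75 without control library C8).

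Receptors of cleaved C3 on leukocytes were among the further genes that rose. Itgam and Itgb2 pair to form complement receptor 3, and Itgax and Itgb2 to form complement receptor 4. Itgam rose by 1.77 (SE 0.22), Itgax by 0.88 (SE 0.17) and Itgb2 by 0.74 (SE 0.19). The Itgb2 call ended without control library C7 or C8, with edgeR adjusted p of 0.0709 and 0.0592. Itgam shares 72.4% of its windows with Gm49368, so its level is uncertain. Cr2, the C3d receptor of B cells and follicular dendritic cells, had 95.2, 44.8 and 32.7 CPM in N129, N136 and N138, against 24.3, 18.4 and 25.7 CPM in C7, C8 and C9 (log2 fold change 1.34, SE 0.34). Its call ended without C8 (edgeR adjusted p = 0.0633). Of 3 B cell markers 1 rose, with sums between 88.5 and 191 CPM in silicosis and between 92.5 and 143 CPM in control.

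The remaining 5 further genes that rose were C1s2 with a log2 fold change of 2.90 (SE 0.46), C1rb with 1.67 (SE 0.46), Ptx3 with 1.54 (SE 0.34), Cpn2 with 1.44 (SE 0.38) and Cd46 with 0.65 (SE 0.21). Ptx3 is a pentraxin that binds C1q, and Cpn2 a subunit of the carboxypeptidase that inactivates C3a and C5a. Windows also found in another gene made up 26.6% of C1s2, 60.5% of C1rb and 16.5% of Cd46. The calls of C1rb, Cpn2 and Cd46 each ended without 3 or more single libraries. The pore genes C8a and C9 were too low to test, with at most 2 and 1 counts in a silicosis library and at most 6 and 2 in a control library.

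N136 was the highest of the 3 silicosis libraries for 20 of the 30 members and N138 the lowest for 20. Over all tested mRNAs N136 was the highest for 36.6% and N138 the lowest for 37.1%. N136 also had the highest sum of the general macrophage markers, while N138 had the highest neutrophil sum.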

How the data were processed

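Total RNA from 6 mouse lung samples, 3 silicosis and 3 control, was grouped by the treatment in the labels. The authors deposited raw counts per gene and library; per the submitters' processing notes the build was GRCm39, and tools listed there without roles are featureCounts 2.0.0, Trimmomatic 0.39, DESeq2 1.36.0, Bowtie2 and HISAT2. The sources used here do not give the annotation or strand setting. The authors' deposited table of log2 fold changes and adjusted p-values was set beside the fit. Members, lists and ratios were chosen with earlier results of these data known; every member is named, and of the further genes those past the test.

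All mRNAs were fitted with edgeR 4.0.16 in R 4.3.3 (filterByExpr, TMM factors, two-sided quasi-likelihood F test, Benjamini-Hochberg over 15808 genes, threshold 0.05). The SE is the log2 fold change divided by the square root of F. CPM use TMM-scaled totals; RPKM divide them by merged GENCODE M21 exon length. Shared windows (50 bases, every 5, longest GENCODE transcript on GRCm38, either strand) were counted against other genes' transcripts. Alternatives were limma-voom (limma 3.58.1), DESeq2 1.42.0, no filter, size factors in place of TMM, each library left out, a 2-fold minimum and added counts of similar genes; members sharing under 10% of windows were chosen after seeing the data. The fits were tested on simulated counts, with 100 genes changed by 2-fold and 100 by 4-fold. Recovery of 2-fold changes was 80% with edgeR, 88% with DESeq2 and 80% with limma-voom. For 4-fold changes it was 98%, 99% and 97%. Of all calls, 8.25%, 17.3% and 8.76% fell on unchanged genes, above the 0.05 threshold. The changed genes were drawn only from those above a floor on mean counts. In the data 31.8% of tested mRNAs were called, a far larger share than was changed in the simulation. These shares therefore need not carry over to the data. Libraries of a group were distinct, with chi-square per degree of freedom between 15.0 and 79.0. Depth was between 33698920 and 44000748 counts.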

Additional observations from a re-analysis of the deposited data

How the results depend on the processing

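Of the 12 members that rose 10, and of the 2 that fell both, kept direction and call under each alternative. These were alternatives of scaling, filter, tool, added counts or left-out library. In each pair of added genes the more abundant gene supplied most of the counts, so adding them is a weak check. For Cfb it is no check, as C2 supplied most of that sum. C1qb and C5ar1 lost the call without control library C7. Of the 16 others 11 stayed uncalled; C1qa and Hc were called without N138, Serping1 without N136, and Fcna and Vsig4 without C9. Leaving out a library gave between 10 and 14 higher members, between 2 and 3 lower, and between 1617 and 2580 higher and 1867 and 2633 lower mRNAs. With a 2-fold minimum 6 members rose and 1 fell: C1qb, C1s1, C4b, Cfp, C5ar1, Clu and Vtn passed the test but were under 2-fold. Among the 23 members sharing under 10% of windows, a limit chosen after seeing the data, 8 rose and 2 fell. Of all tested mRNAs 15.3% were called higher and 16.5% lower, and their share under the same limit was not computed. DESeq2 size factors, no filter, DESeq2 and limma-voom each called 12 higher and 2 lower. The authors' deposited table has 12 higher and 2 lower members at an adjusted p under 0.05, the same 14. Its log2 fold changes equal those of the DESeq2 alternative on the same counts, such as 1.365 for C3. It is therefore no separate check. C4a with C4b could not be added, as C4a was not analysed here. No paired analysis was possible because the groups share no replicate numbers. Lectin genes, Vsig4, Cfb and Cfi are limited by low counts.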
